A study of Homo sapiens with 6 samples.

Results

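Hypoxia signalling was examined over 10 genes, namely the 4 genes of the N-myc downstream-regulated family (*NDRG1*, *NDRG2*, *NDRG3* and *NDRG4*), the oxygen-regulated subunits *HIF1A* and *EPAS1* of the hypoxia-inducible factors (HIFs), the prolyl hydroxylases *EGLN1*, *EGLN2* and *EGLN3*, and *VHL*. The genes were found by symbol, and all 10 were among the 20381 genes of the count table. RNA-seq was carried out on HCCLM3, an established human hepatocellular carcinoma (HCC) cell line. PON1, paraoxonase 1, is an esterase made mainly by the liver. The cells had been infected with a lentivirus carrying the full *PON1* coding sequence (PON1-OE) or with an empty vector (NC), and both lines had been selected with puromycin. There were 3 PON1-OE and 3 NC libraries of poly(A) RNA. The series' design text gives 15% serum and lysis 24 h after transfection, while the study's methods describe stable lines and another serum content. The sources used here do not state whether the replicates came from separate infections or cultures. The SDs thus describe the spread between these libraries only, and the standard errors come from the fit to these libraries. The 10 genes were put together with the log2FC of PON1-OE against NC in these libraries known, and are treated as selected on it. Their differences are therefore given as a description, with no p-value for any of them.

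In well-oxygenated cells the prolyl hydroxylases, also named PHD1 (*EGLN2*), PHD2 (*EGLN1*) and PHD3 (*EGLN3*), hydroxylate the HIF alpha subunits. The *VHL* protein, the substrate-binding part of a ubiquitin ligase, then marks these subunits for degradation, so that their abundance is set mainly at the protein level. When oxygen is low, HIF-1 alpha or HIF-2 alpha (encoded by *EPAS1*) pairs with ARNT and activates genes of glycolysis, angiogenesis and oxygen homeostasis. *NDRG1* is a widely used hypoxia-responsive gene, and its product is a cytoplasmic protein phosphorylated by the kinases SGK1 and GSK3. *EGLN1* and *EGLN3* are themselves HIF targets, which makes them part of a feedback loop.

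The totals of the estimated counts were 15706672 to 17948383 per library. *PON1* had 0, 2 and 3 counts in the NC libraries (in the order of their replicate numbers, as in all lists of values) against 155, 181 and 167 in the PON1-OE libraries. Of the 20381 genes, 11958 passed the filter on low counts and were tested. Expression is given in normalized CPM, that is counts scaled by library total and TMM factor, where the floor, 3 counts in a library, was equal to 0.166 to 0.192 CPM and covers counting error only. The labels call the cells hepatocytes. Of 9 markers of liver tumor lines, *ALB*, *AFP*, *APOA1*, *TTR*, *SERPINA1* and *EPCAM* were low, with *AFP* at most 1.10 CPM, *ALB* at most 0.762 CPM and the other 4 at most 0.500 CPM in any library. *AFP* had counts of 15, 4 and 7 in NC against 18, 16 and 11 in PON1-OE, and *APOB* was at 6.24, 4.87 and 6.22 CPM in NC against 4.81, 3.75 and 4.92 CPM in PON1-OE. The groups overlapped for both, with adjusted p-values of 0.511 and 0.443 in edgeR. The epithelial keratins *KRT8* and *KRT18* were between 1459 and 2569 CPM. Of 5 leukocyte markers, *PTPRC*, *CD3E* and *LYZ* had 0 counts in every library, and the summed level, nearly all *CD68*, was 207 to 227 CPM in NC against 225 to 248 CPM in PON1-OE. The summed level of 6 fibroblast markers was 15.98 to 20.95 CPM in NC against 16.7 to 20.2 CPM in PON1-OE, and these ranges overlapped. That of 5 endothelial markers, mostly *PECAM1* and *KDR*, was 22.1 to 24.8 CPM in NC against 25.3 to 28.0 CPM in PON1-OE, without overlap, and 3 of the 5 were removed by the filter. The libraries came from a cell line, and the part of these markers in the results was not tested. In bulk RNA, a different number of cells of a kind and a different amount of RNA per cell cannot be told apart.

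The promoters of the 3 prolyl hydroxylase genes are shown because these paralogs, which act on the same substrates, ranged from well expressed to nearly absent in these cells. The sequences are RefSeq windows on GRCh38.p14 from 250 bases before to 50 bases after the annotated start, each written 5′ to 3′ on the strand of its gene. Capitals mark ACGTG or GCGTG on either strand, the core letters of the hypoxia response element to which HIFs bind. The window of *EGLN1* is chr1:231422238-231422537 on the minus strand, and that of *EGLN3* is chr14:33951025-33951324 on the minus strand. For *EGLN2* the window listed first is shown, chr19:40798941-40799240 on the plus strand.
EGLN2: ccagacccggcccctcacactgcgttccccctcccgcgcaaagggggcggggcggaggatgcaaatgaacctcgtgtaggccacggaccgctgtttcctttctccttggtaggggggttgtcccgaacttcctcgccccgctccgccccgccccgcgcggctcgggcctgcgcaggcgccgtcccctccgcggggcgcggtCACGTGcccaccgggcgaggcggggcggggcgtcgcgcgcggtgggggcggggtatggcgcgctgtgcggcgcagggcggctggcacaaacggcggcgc
EGLN1: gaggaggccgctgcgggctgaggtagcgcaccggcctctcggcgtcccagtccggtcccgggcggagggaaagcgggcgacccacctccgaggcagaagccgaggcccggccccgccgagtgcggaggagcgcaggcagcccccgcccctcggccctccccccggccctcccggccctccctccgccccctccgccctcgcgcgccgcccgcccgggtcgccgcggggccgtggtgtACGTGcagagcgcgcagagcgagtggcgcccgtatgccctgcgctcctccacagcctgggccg
EGLN3: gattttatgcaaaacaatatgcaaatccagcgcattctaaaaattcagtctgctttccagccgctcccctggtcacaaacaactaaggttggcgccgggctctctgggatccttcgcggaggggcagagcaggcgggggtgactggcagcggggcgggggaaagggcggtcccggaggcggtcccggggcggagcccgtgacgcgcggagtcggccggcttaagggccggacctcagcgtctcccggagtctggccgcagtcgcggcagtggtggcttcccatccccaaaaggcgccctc

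The *EGLN2* window shown held ACGTG on both strands within a single palindrome, CACGTG. The *EGLN1* window held ACGTG once, and the *EGLN3* window held neither pentamer. Another window of *EGLN2*, chr19:40799272-40799571, is not shown and held neither pentamer. Of the 35116 promoter windows of this length, 48.4% had ACGTG or GCGTG on either strand and 21.4% had ACGTG, so that a match is common. A match is a description of the letters, and these windows do not cover distant elements. Of the 10 genes, 7 had a window in the table used. *HIF1A* and *EPAS1* each had GCGTG once in the window listed first for the gene. *NDRG1*, *NDRG3* and *VHL* were not in the table.

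Expressed per kilobase of all annotated exons, *EPAS1* and *NDRG1* had the highest levels of the 10 genes. The *EPAS1* level was 58.2 ± 1.54 CPM per kb in NC against 56.4 ± 1.10 CPM per kb in PON1-OE (SD, n = 3 each, as for all levels here). The *NDRG1* level was 50.7 ± 0.504 CPM per kb in NC against 63.1 ± 3.49 CPM per kb in PON1-OE. On this scale *EPAS1* exceeded *NDRG1* in every NC library and *NDRG1* exceeded *EPAS1* in every PON1-OE library. Per kilobase of the longest transcript *NDRG1* was above *EPAS1* in all 6 libraries, at 125 ± 1.24 CPM per kb against 82.2 ± 2.17 CPM per kb in NC, so the order of these genes depends on the length used.

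**Figure D1:**
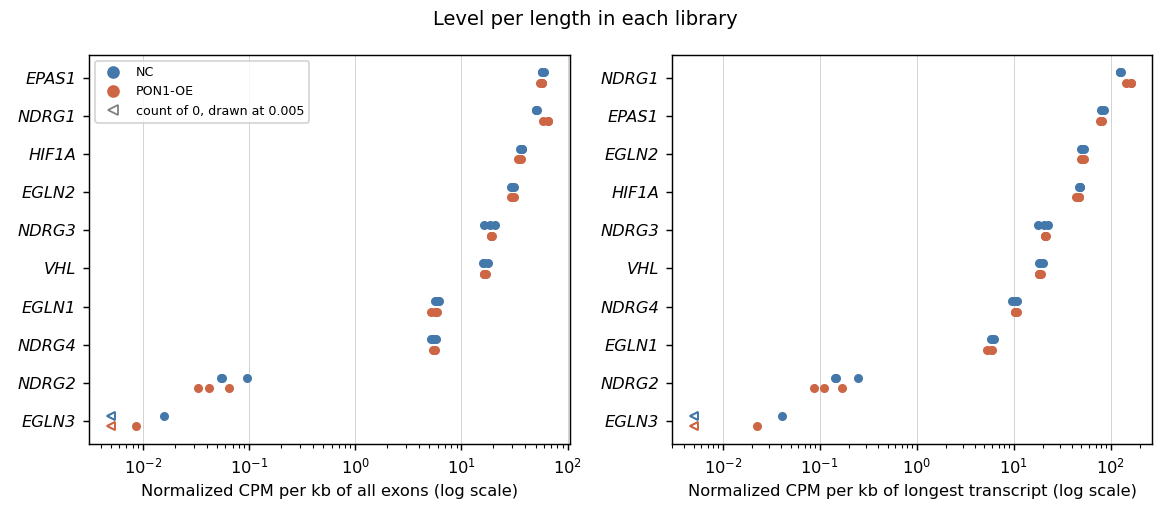
Level per length of the 10 genes in each library, in normalized CPM per kilobase of all annotated exons (left) or of the longest transcript (right), on log axes. NC libraries are blue and PON1-OE libraries orange, and open triangles stand for a count of 0. *EGLN3* and *NDRG2* lie far below the other 8 genes on both scales, and *EPAS1* and *NDRG1* are at the top.

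*HIF1A* followed, at 37.0 ± 0.894 CPM per kb of all exons in NC against 35.2 ± 1.32 CPM per kb in PON1-OE. The level of *EPAS1* relative to *HIF1A* per kb of all exons was 1.52 to 1.61 in NC against 1.53 to 1.68 in PON1-OE, and these ranges overlapped. The transcript of HIF-2 alpha was thus the more abundant of both subunits in each library. *EGLN2* came next at 30.1 ± 1.06 CPM per kb in NC against 30.2 ± 1.17 CPM per kb in PON1-OE. Per kb of the longest transcript *EGLN2* was above *HIF1A* in every library, whereas per kb of all exons it was below.

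*NDRG3* and *VHL* had ranges that overlapped over the 6 libraries per kb of all exons, 16.3 to 20.8 and 16.01 to 17.80 CPM per kb, although *NDRG3* was above *VHL* in each library. In PON1-OE these levels were apart, at 19.3 ± 0.265 CPM per kb for *NDRG3* against 16.5 ± 0.416 CPM per kb for *VHL*. The ranges of *EGLN1* and *NDRG4* also overlapped per kb of all exons, with 5.19 to 6.18 and 5.14 to 5.73 CPM per kb. Per kb of the longest transcript they were apart, with 5.32 to 6.33 CPM per kb for *EGLN1* and 9.69 to 10.8 CPM per kb for *NDRG4*. Among the hydroxylases, the *EGLN2* level was 4.84 to 5.53 times the *EGLN1* level in NC against 5.14 to 5.61 times in PON1-OE, per kb of all exons. Per kb of the longest transcript this ratio was 7.98 to 9.13 in NC against 8.48 to 9.25 in PON1-OE. *EGLN1* encodes PHD2, the hydroxylase regarded as the main oxygen sensor for HIF-1 alpha.

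*EGLN3* (chr14:33924231-34462774, minus strand), encoding PHD3, was all but undetected. Its counts were 0, 0 and 2 in NC against 0, 0 and 1 in PON1-OE, at or under the floor of 3 counts in each library, so no fold is given. *NDRG2* (chr14:21016763-21070872, minus strand), a family member known for expression in brain and normal liver, had counts of 7, 13 and 7 in NC against 8, 4 and 5 in PON1-OE. These ranges overlapped, and at 0.250 to 0.719 CPM a difference was not detectable at this depth. Both genes were removed by the filter on low counts, which left 8 of the 10 genes tested.

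*NDRG1* was higher in PON1-OE than in NC. It lies at chr8:133237171-133302022 on the minus strand (ENSG00000104419, GRCh38 with GENCODE v29, as for all gene positions), where no other annotated gene overlaps it. It was counted 8196, 9113 and 8431 times in the NC libraries against 10496, 9276 and 10022 times in the PON1-OE libraries, which gave 496, 504 and 494 CPM in NC against 639, 580 and 640 CPM in PON1-OE. All PON1-OE libraries lay above all NC libraries, PON1-OE replicate 2 was the lowest of its group, and the NC libraries stood close together. The means were 498 ± 4.95 CPM in NC against 620 ± 34.3 CPM in PON1-OE (SD over 3 libraries), a log2FC of 0.31 (standard error 0.038), that is 24.4% more in PON1-OE. This was below the fold threshold of the study's methods, a log2FC of 0.585 or 1.5-fold. Leaving out single libraries kept the log2FC between 0.29 and 0.36.

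Since the group was selected on this contrast, the counts that follow describe the selection and nothing is read from them. At a Benjamini-Hochberg false discovery rate of 0.05 in edgeR 1 of the 8 was called, *NDRG1*, beside 0.677% of all genes tested, 0.502% as higher and 0.176% as lower. With the fold threshold added, 0 of the 8 were called, beside 0.0502% of all genes. The groups of 1 of the 8, *NDRG1*, did not overlap, beside 16.1% of all genes.

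**Figure D2:**
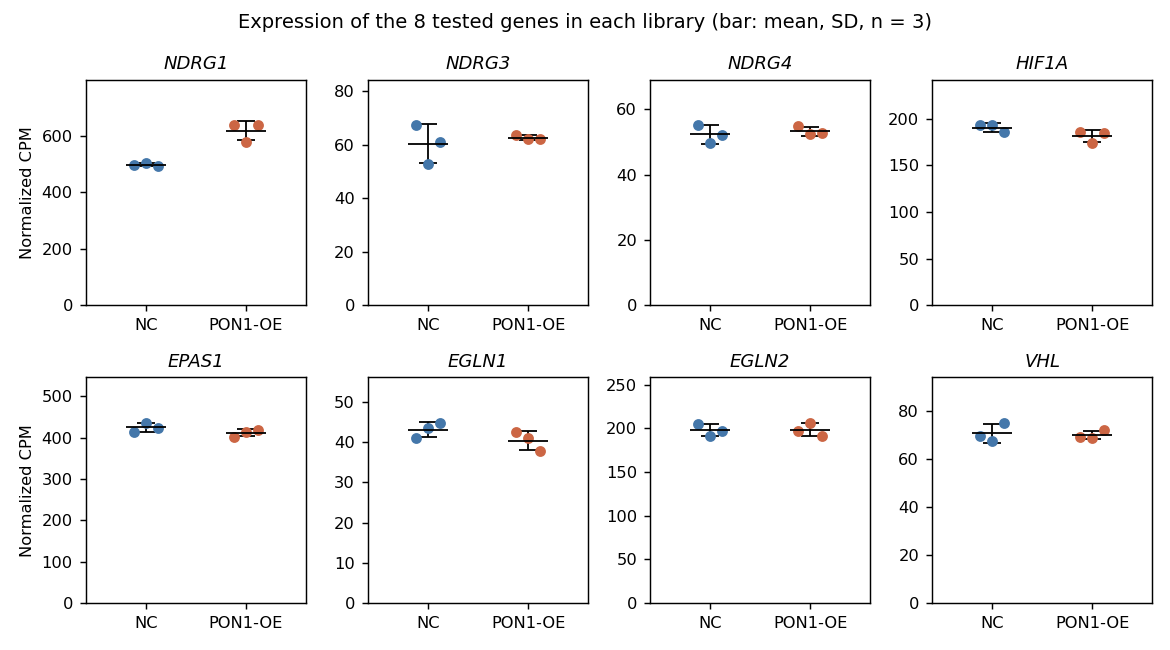
Normalized CPM of the 8 tested genes in each library, on linear axes from 0. Points are libraries (NC blue, PON1-OE orange), and bars give the mean and SD of 3 libraries. For *NDRG1* the PON1-OE points (580 to 640 CPM) lie above the NC points (494 to 504 CPM), and for the other 7 genes the groups overlap.

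In the other tested NDRG genes the groups overlapped. *NDRG3* (chr20:36651766-36746078, minus strand), whose protein is known as a lactate-binding hypoxia effector, was at 67.4, 52.8 and 60.9 CPM in NC against 63.6, 62.1 and 62.1 CPM in PON1-OE. The NC libraries spanned the whole range, with NC replicate 2 lowest, and the log2FC was 0.054 (standard error 0.069). Without NC replicate 2 it was −0.035. *NDRG4* (chr16:58462846-58513628, plus strand), best known from heart and brain, was at 55.3, 49.6 and 52.2 CPM in NC against 54.9, 52.4 and 52.7 CPM in PON1-OE, a log2FC of 0.028 (standard error 0.060), and its sign also changed without NC replicate 2 (−0.011). The share of *NDRG1* in the summed NDRG level per kb of all exons was 65.6% to 70.5% in NC against 70.6% to 72.6% in PON1-OE. Per kb of the longest transcript this share was 78.8% to 82.1% in NC against 82.4% to 83.7% in PON1-OE, so it depends on the length used.

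Both HIF alpha transcripts had slightly lower means in PON1-OE, with overlapping groups. *HIF1A* (chr14:61695513-61748259, plus strand) was at 193, 193 and 185 CPM in NC against 186, 174 and 185 CPM in PON1-OE, and the lowest NC library lay below the highest PON1-OE library. The log2FC was −0.070 (standard error 0.041) and stayed between −0.090 and −0.039 over all alternatives. An antisense gene, *HIF1A-AS1*, shares 117 exonic bases with *HIF1A*, and the counting is not stated to use strand. *EPAS1* (chr2:46293667-46386703, plus strand) was at 414, 437 and 423 CPM in NC against 403, 414 and 418 CPM in PON1-OE, a log2FC of −0.044 (standard error 0.035), between −0.061 and −0.024 over all alternatives. HIF alpha protein was not measured.

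The groups of the hydroxylases and of *VHL* overlapped. *EGLN1* (chr1:231363751-231425044, minus strand) was at 41.1, 43.5 and 44.9 CPM in NC against 42.4, 41.1 and 37.7 CPM in PON1-OE, with the lowest value in PON1-OE replicate 3. Its log2FC of −0.093 (standard error 0.067) was the lowest of the 8 genes, and −0.046 without that library. *EGLN2* (chr19:40798996-40808433, plus strand) was at 206, 192 and 197 CPM in NC against 197, 207 and 192 CPM in PON1-OE, the groups covering nearly the same range, and had a log2FC of 0.0043 (standard error 0.042). *EGLN2* shares 2012 exonic bases with the readthrough gene *RAB4B-EGLN2*, which had counts of 0 to 17 per library against 3000 to 3469 for *EGLN2*, and reads of the shared exons could have been split between both genes. *VHL* (chr3:10141008-10152220, plus strand) was at 69.3, 67.4 and 75.002 CPM in NC against 69.0, 68.4 and 71.7 CPM in PON1-OE, a log2FC of −0.018 (standard error 0.055). The sign of *EGLN2* and that of *VHL* changed when single libraries were left out. Over the 7 tested genes other than *NDRG1* the log2FC lay between −0.093 and 0.054, with standard errors of 0.035 to 0.069.

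**Figure D3:**
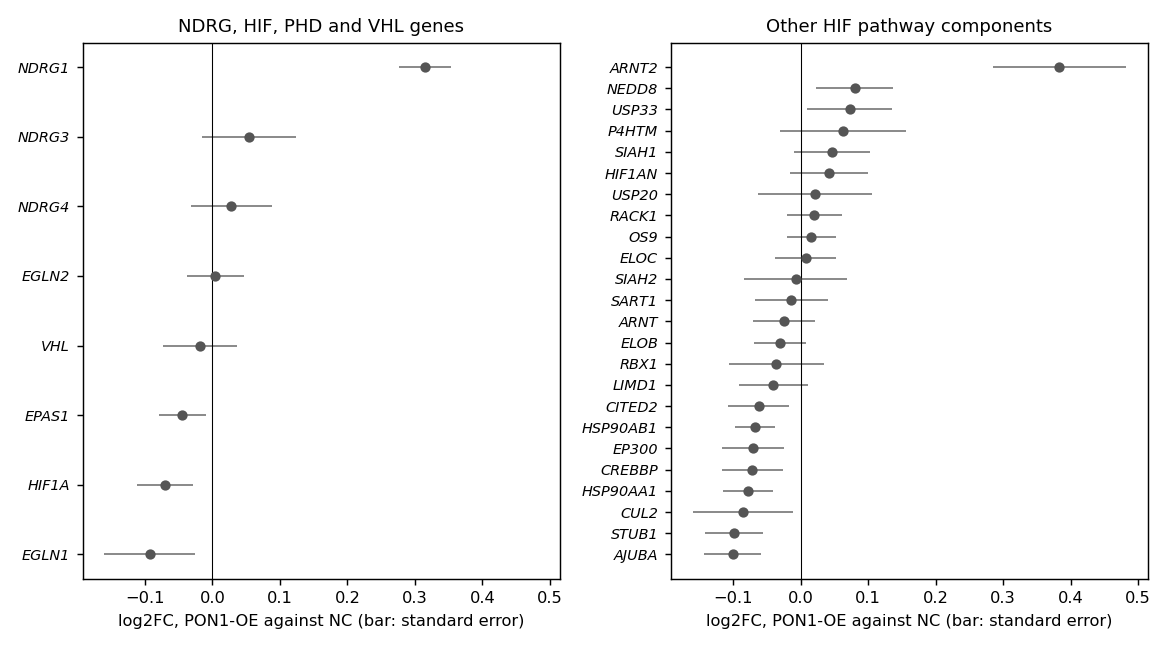
log2FC of PON1-OE against NC with its standard error for the 8 tested genes (left) and for 24 other components of the HIF pathway (right). *NDRG1* is at 0.31, and the other 7 genes on the left lie between −0.093 and 0.054.

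The partners and cofactors of the HIFs were read from a list of 25 genes, of which 24 were tested. None of them had an adjusted p under 0.05 in edgeR or limma-voom. DESeq2 also called 0, but it gave an adjusted p to only 20 of them. At an unadjusted p under 0.05 in edgeR there was 1 higher gene (5.91% of all genes were) and there were 4 lower genes (5.17%). The median log2FC was −0.020, against −0.0025 over all genes tested. *ARNT*, which encodes the constitutive beta subunit, was at 98.8, 97.2 and 99.9 CPM in NC against 94.7, 100.3 and 95.8 CPM in PON1-OE, a log2FC of −0.025 (standard error 0.046). *HIF1AN*, the asparaginyl hydroxylase that blocks the HIF transactivation domain, had a log2FC of 0.042 (standard error 0.058).

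*ARNT2*, a paralog of *ARNT* with a more restricted expression, had the highest log2FC on this list, 0.38 (standard error 0.099). It was at 12.1, 11.2 and 11.1 CPM in NC against 14.9, 14.8 and 15.1 CPM in PON1-OE, so that the groups were apart. The adjusted p was 0.0882 in edgeR, with 0.0517 to 0.353 over 11 alternatives, and DESeq2 gave *ARNT2* no adjusted p. Of the next genes by p, *AJUBA*, a LIM protein that links hydroxylases to *VHL*, had a log2FC of −0.10 (standard error 0.042). *STUB1*, a chaperone-associated ubiquitin ligase, had a log2FC of −0.099 (standard error 0.043), and *HSP90AB1*, a chaperone of the HSP90 class that holds HIF-1 alpha, a log2FC of −0.068 (standard error 0.030). Their adjusted p-values in edgeR were 0.380, 0.392 and 0.397. *HIF3A*, removed by the filter, had counts of 10, 9 and 11 in NC against 1, 3 and 7 in PON1-OE. Without the filter its adjusted p in edgeR was 0.515.

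Of 60 HIF target genes, 57 were tested, and 1 was called at an adjusted p under 0.05, against 0.677% of all genes. The other 56 did not pass the test. The count was 0 without NC replicate 3 and 0 without PON1-OE replicate 3.

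**Figure D4:**
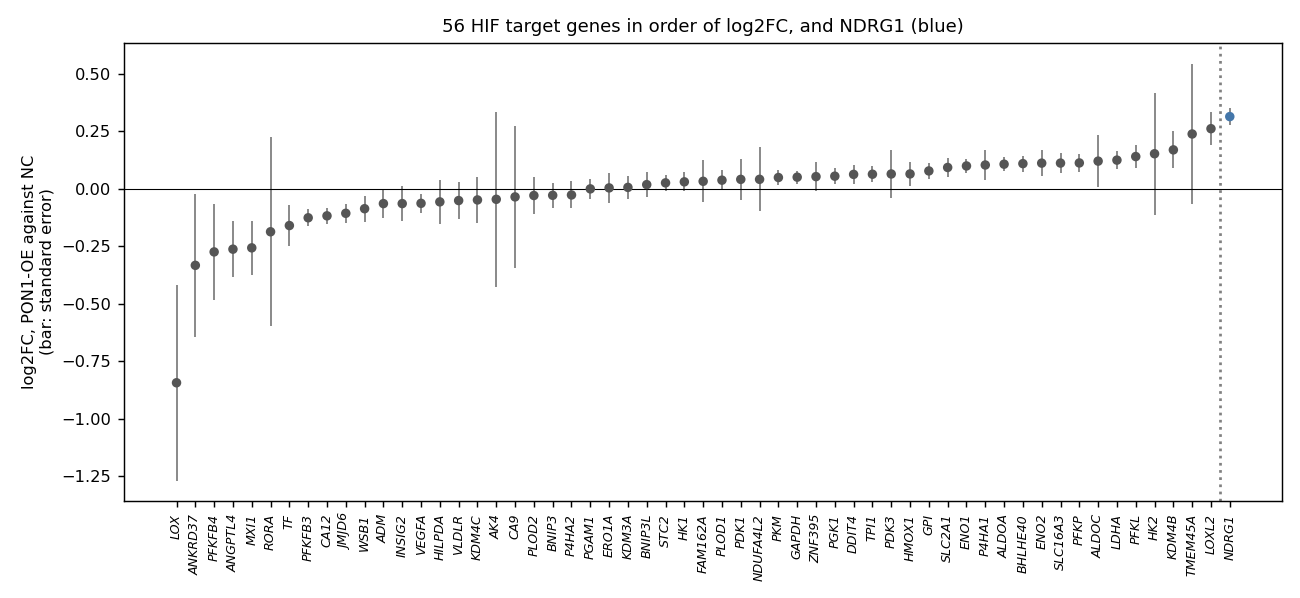
log2FC of PON1-OE against NC with its standard error for the 56 tested HIF target genes with an adjusted p of at least 0.05 in edgeR, in order of log2FC, and for *NDRG1* at the right of the dotted line. *NDRG1*, in blue, is at 0.31. The wide bars belong to genes at low levels, such as *LOX* at −0.84.

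The median log2FC of the 57 targets was 0.033, with 35 above 0 and 22 below, where 49.0% of all genes tested were above 0. The 15 glycolytic enzymes among them, set apart after their values were seen, were all above 0. The other 42 targets had a median of −0.027, with 20 above 0 and 22 below. At an unadjusted p under 0.05 in edgeR, 12 of the 57 were higher and 5 lower, 29.8% against 11.1% of all genes. Without the glycolytic enzymes, 6 were higher and 5 lower, 26.2% of the other 42 targets. Groups that did not overlap were found for 15 targets, 10 higher and 5 lower, a share to set beside the 8.32% and 7.74% of all genes. The list was chosen with earlier results of these data known. It also holds some of the most highly expressed genes, such as *ENO1* and *ALDOA* at ranks 18 and 45 by CPM. All genes are thus not a like background, and these shares are a description.

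Canonical hypoxia markers outside glycolysis lay on both sides of 0 and none of those named here passed the test in edgeR. *CA9*, a carbonic anhydrase that is nearly off in normoxic cells, was at 1.76, 1.71 and 3.69 CPM in NC against 2.92, 1.501 and 2.554 CPM in PON1-OE, and the groups overlapped. *VEGFA*, the angiogenic growth factor, was at 195, 199 and 200 CPM in NC against 197, 184 and 188 CPM in PON1-OE, a log2FC of −0.062 (standard error 0.040). *ADM*, a vasodilator peptide, had a log2FC of −0.064 (standard error 0.062), and *BNIP3*, a mitophagy receptor, a log2FC of −0.028 (standard error 0.054). *LOXL2*, a collagen cross-linking enzyme, was at 34.8, 33.0 and 34.4 CPM in NC against 43.5, 41.8 and 37.2 CPM in PON1-OE, with the groups apart, a log2FC of 0.26 (standard error 0.071) and an adjusted p of 0.117 in edgeR. The carbonic anhydrase *CA12*, named after its values were seen, was at 557, 544 and 563 CPM in NC against 495, 519 and 519 CPM in PON1-OE, a log2FC of −0.12 (standard error 0.034) with an adjusted p of 0.157 in edgeR and 0.0338 in DESeq2.

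Among the 57 targets are 15 glycolytic enzymes, a subset set apart after its values were seen. All 15 had a log2FC above 0, between 0.00040 for *PGAM1* and 0.15 for *HK2*, with a median of 0.10. The subset leaves out the enzymes of the list that make or remove a regulatory sugar phosphate of glycolysis, both of which had a log2FC below 0. *PFKFB3* was at 284, 303 and 291 CPM in NC against 263, 273 and 269 CPM in PON1-OE, with the groups apart and a log2FC of −0.13 (standard error 0.038, adjusted p = 0.172 in edgeR), and *PFKFB4* had a log2FC of −0.27 (standard error 0.21) with overlapping groups. None of the 15 had an adjusted p under 0.05 in edgeR, beside 0.677% of all genes, and 6 had an unadjusted p under 0.05, beside 11.1% of all genes. DESeq2 called 2 of them, *ALDOA* and *ENO1*, beside 121 of the 5761 genes to which it gave an adjusted p. *ALDOA*, the aldolase of the pathway, was at 1496, 1479 and 1486 CPM in NC against 1583, 1639 and 1585 CPM in PON1-OE, a log2FC of 0.11 (standard error 0.030) with an adjusted p of 0.137 in edgeR and 0.00657 in DESeq2. *ENO1*, the enolase, was at 2529, 2509 and 2518 CPM in NC against 2657, 2758 and 2684 CPM in PON1-OE, a log2FC of 0.10 (standard error 0.029) with an adjusted p of 0.151 in edgeR and 0.00967 in DESeq2. The glucose transporter *SLC2A1* had a log2FC of 0.094 (standard error 0.043, adjusted p = 0.428 in edgeR), and its groups overlapped. The number of enzymes above 0 was 13 to 15 over the alternatives, with 13 without PON1-OE replicate 2.

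A list of 15 kinases and transcriptional regulators of *NDRG1* had 14 members tested. None was called at an adjusted p under 0.05 in edgeR, beside 0.677% of all genes, and 2 of the 14 had an unadjusted p under 0.05, a share of 14.3% beside 11.1% of all genes. The groups did not overlap for 2 of the 14, 1 higher and 1 lower, beside 8.32% and 7.74% of all genes. *MYC*, which represses *NDRG1*, was at 363, 367 and 398 CPM in NC against 372, 374 and 365 CPM in PON1-OE, a log2FC of −0.022 (standard error 0.039). *SGK1*, the kinase that phosphorylates *NDRG1* protein, was low, with counts of 44, 43 and 39 in NC against 52, 60 and 48 in PON1-OE. The groups of *SGK1* were apart, with a log2FC of 0.45 (standard error 0.21, adjusted p = 0.450 in edgeR). *EGR1*, an immediate early transcription factor, had a log2FC of 0.22 (standard error 0.11), which was 0.092 without NC replicate 2, 0.37 without NC replicate 1 and 0.14 without PON1-OE replicate 1. *SGK2*, a kinase related to *SGK1*, had a log2FC of −0.16 (standard error 0.084), and −0.093 without PON1-OE replicate 3.

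*AHR*, the aryl hydrocarbon receptor, which also pairs with ARNT, was at 95.9, 103.4 and 96.6 CPM in NC against 88.8, 82.7 and 86.6 CPM in PON1-OE, with all PON1-OE libraries below all NC libraries. Its log2FC was −0.20 (standard error 0.050, adjusted p = 0.0833 in edgeR). The adjusted p was 0.0478 in DESeq2 and 0.0294 without the filter on low counts, and up to 0.256 over the 12 alternatives.

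Prolyl hydroxylases need iron, and 12 genes of iron handling were read beside them. None was called at an adjusted p under 0.05 in edgeR, nor in DESeq2, which gave an adjusted p to only 9 of the 12. The median log2FC was −0.031. At an unadjusted p under 0.05 there was 1 gene, 8.33% of the 12 beside 11.1% of all genes. The groups did not overlap for 5 of the 12, 1 higher and 4 lower, beside 8.32% and 7.74% of all genes. The gene of lowest p was *ACO1*, the iron regulatory protein IRP1, at 93.3, 92.4 and 93.6 CPM in NC against 100.6, 106.6 and 105.3 CPM in PON1-OE, a log2FC of 0.16 (standard error 0.046, adjusted p = 0.144 in edgeR). The transferrin receptor *TFRC*, whose transcript is stabilized when iron is short, was at 627, 603 and 606 CPM in NC against 583, 588 and 599.7 CPM in PON1-OE, a log2FC of −0.053 (standard error 0.033, adjusted p = 0.602). The groups of *TFRC* did not overlap, with 603 CPM as the lowest NC value and 599.7 CPM as the highest PON1-OE value. The log2FC was −0.091 for the iron transporter *SLC11A2*, 0.14 for the ferrireductase *STEAP3* and −0.11 for the iron regulatory protein *IREB2*, with adjusted p-values of 0.457, 0.560 and 0.573 in edgeR.

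The genes most like *NDRG1* over the 6 libraries were named by Pearson's r of log2 CPM among 9718 other genes with a mean of at least 100 counts. Among the 5 highest were *TPM4* (r = 0.994), a tropomyosin, *HPS3* (r = 0.993), of lysosome-related organelle biogenesis, *TOGARAM1* (r = 0.988), a microtubule regulator of cilia, and *GRB10* (r = 0.988), an adaptor of growth factor receptors. The 6 points share the PON1-OE against NC split. In each of the genes named, as in *NDRG1*, PON1-OE replicate 2 was also the lowest of its group. These values thus restate the split and the low replicate 2 together, and carry no p. *TPM4* had a log2FC of 0.13 (standard error 0.032) with an adjusted p of 0.0833 in edgeR. *HPS3*, *TOGARAM1* and *GRB10* had adjusted p-values of 0.450, 0.736 and 0.0910.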

How the data were processed

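RNA-seq libraries of poly(A) RNA from HCCLM3 cells (3 NC and 3 PON1-OE) were sequenced on an Illumina NovaSeq. The authors deposited one table of estimated counts per gene for 20381 genes, without normalization, in which 10.5% of values were not whole. The submitters' processing notes name Bowtie2 2.2.8, HISAT2, StringTie 1.3.1 and DESeq2 without roles. The genome build and annotation are not given in the sources used here. Of the identifiers, 20126 were in GENCODE v29, which gave GRCh38 positions and lengths.

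Here the estimated counts were rounded and fitted with edgeR 4.0.16 under R 4.3.3 (filterByExpr, TMM, glmQLFit and glmQLFTest, PON1-OE against NC, no covariates), with Benjamini-Hochberg adjustment over the 11958 genes tested. Standard errors were derived from the fitted coefficient and the F statistic of that test, whose dispersions draw on all genes tested. The alternatives comprised normalization by RLE, dropping the filter, a minimum of 10 counts in all libraries, a replicate block, DESeq2 1.42.0, limma-voom (limma 3.58.1), each library left out, and other thresholds. The fit was also run on simulated counts with the same dispersion for every gene. Variation that differs between genes or libraries was not simulated, so nothing is read from that run. Replicates within groups varied beyond counting error (chi-square per degree of freedom 2.11 to 4.11).

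The 10 genes and the gene lists were chosen with earlier results of these data known. The genes named are the 10 genes, *PON1*, list genes with an adjusted p under 0.05 or up to 4 of lowest p per list, 10 fixed names, the 5 genes most like *NDRG1*, and, after their values were seen, *CA12*, *HIF3A*, and *PGAM1*, *HK2* and *LOX* as extremes, and *PFKFB3*, *PFKFB4* and the cell type markers. Of the genes this rule gives, 2 are not reported here.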

Additional observations from a re-analysis of the deposited data

How the results depend on the processing

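The log2FC of *NDRG1* was 0.29 to 0.36 in the 12 other fits, and with the fold threshold added 0 of the 8 tested genes of the group were called. Over all genes, 81 were called, against 177 without the filter, 40 with the replicate block, 6 when the fold threshold was added, 1325 at an unadjusted p under 0.05, and 11 (without NC replicate 3) to 103 (without PON1-OE replicate 2) when single libraries were left out. The count was also 34 without NC replicate 1, and leaving out PON1-OE replicate 1 or 3 gave 44 or 18. DESeq2 called 121 of the 5761 genes to which it gave an adjusted p. Same-numbered libraries had deviations correlated at 0.112, −0.257 and −0.195, and 1 of 6 libraries correlated best with its own number, so the replicate numbers were not taken to pair the samples.

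Of the HIF targets, 1 was called, against 4 in DESeq2 (*ALDOA*, *CA12* and *ENO1* among them), 2 without the filter (*LOXL2* among them), 0 when a fold was also asked for, 17 at an unadjusted p under 0.05, and 0 to 1 with single libraries left out (0 if the third library of either group was missing). The HIF partners had 5 genes at an unadjusted p under 0.05, the *NDRG1* regulators 2, and iron handling 1. DESeq2 and the fit without the filter each called 1 *NDRG1* regulator, *AHR*. In DESeq2 only 37 of the HIF targets, 20 of the HIF partners, 9 of the *NDRG1* regulators and 9 of the iron handling genes had an adjusted p.

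Signs changed for genes near 0. With single libraries left out, the log2FC reached 0.14 for *NDRG3*, 0.068 for *NDRG4*, 0.032 for *EGLN2*, −0.051 for *VHL*, −0.23 for *CA9*, −0.071 for *BNIP3* and −0.047 for *MYC*, and −0.029 for the median over the 8 tested genes. Without NC replicate 2 the log2FC was −0.035 for *NDRG3*, −0.011 for *NDRG4* and −0.019 for *EGLN2*. *EGLN2* was also at −0.00032 without NC replicate 3 and −0.025 without PON1-OE replicate 2. Without NC replicate 3 *VHL* was at 0.027, *MYC* at 0.021 and *CA9* at 0.42. Without PON1-OE replicate 2 *CA9* was at 0.20 and *BNIP3* at 0.0018, and in limma-voom *CA9* was at 0.010. The median over the 8 tested genes, −0.0070, was 0.00073 without NC replicate 1, 0.013 without NC replicate 3 and 0.0011 without PON1-OE replicate 1, and that of the *NDRG1* regulators, −0.013, was 0.0021 without PON1-OE replicate 3. The cause was not tested. Per kb of the longest transcript the mean levels over 6 libraries were 140.3 CPM per kb for *NDRG1*, 0.151 for *NDRG2*, 20.6 for *NDRG3*, 10.3 for *NDRG4*, 47.0 for *HIF1A*, 81.0 for *EPAS1*, 50.9 for *EGLN2* and 18.8 for *VHL*, from the shorter lengths used. Depth limited *NDRG2*, *EGLN3* and *HIF3A*, which had at most 13 counts in a library.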
